A study of Mus musculus with 6 samples.

Results

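The Skint genes were followed in the mRNA of mouse epidermal keratinocytes with and without the K14-Cre transgene. The 10 members, Skint1 to Skint10, were taken by symbol through their Ensembl identifiers from a count table of 38924 genes, and all 10 passed the filter on low counts that left 15525 genes for testing. The cells were CD49f-positive epidermal cells, that is, cells carrying integrin alpha 6, sorted by flow cytometry from skin suspensions. The Cre-positive group (K14-Cre+, Rnaseh2b flox/flox, 3 libraries) carried Cre recombinase under the keratin 14 promoter, which is active in basal keratinocytes, and the Cre-negative group (K14-Cre-, Rnaseh2b flox/flox, 3 libraries) carried the same floxed alleles without it. Rnaseh2b encodes a subunit of RNase H2, which removes ribonucleotides from DNA. Strain, age and sex are not in the labels, and nothing there says whether the libraries came from separate mice, so p-values measure the spread between these libraries, which may be partly technical.

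Skint genes encode butyrophilin-like membrane proteins of the immunoglobulin superfamily and are expressed mainly in skin keratinocytes and thymic epithelium of the mouse. Skint1, the founding member, is required in the thymus for the selection of the gamma-delta T cells that later populate the epidermis as dendritic epidermal T cells. Roles of the other members are much less well known. The family stands in a single cluster of tandem duplicates, so its members resemble each other in sequence.

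Libraries held 22948779 to 31718094 counts. Rnaseh2b had 5.29, 3.98 and 3.28 CPM (counts relative to library size, with edgeR's TMM factors) in the Cre-positive libraries, against 21.8, 20.7 and 21.7 CPM in the Cre-negative ones, so the labels match the targeted gene. The keratinocyte genes Krt5 and Krt14 stood at 7784 to 8196 and 5298 to 5851 CPM in Cre-positive libraries, against 7656 to 9075 and 4601 to 5710 CPM in Cre-negative ones, and Itga6, which encodes the sorted marker, at 290 to 409 CPM in Cre-positive and 291 to 316 CPM in Cre-negative libraries. Xist and Y-linked transcripts placed 1 female and 2 males in the Cre-positive group and 2 females and 1 male in the Cre-negative group. Cre-positive replicate 3, the female of its group, stood apart: the chi-square per degree of freedom over genes was 70.4 and 48.4 against replicates 1 and 2 of its group, 14.7 between those replicates, and 9.11 to 14.1 among the Cre-negative libraries. Where leaving out this library moved the fold change of a Skint gene by over 1.5 times, the value without it is given.

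The cluster occupied chromosome 4 of mm10 from 111919392 to 113999503, a span of 2.08 Mb, with 6 members on the plus strand and 4 on the minus strand. In order of position these were Skint8, Skint7, Skint1, Skint4 and Skint3 on the plus strand, Skint9 on the minus strand, Skint2 on the plus strand, and Skint10, Skint6 and Skint5 on the minus strand. Gene structure split the family: Skint5 and Skint6 were counted over 59 and 49 exon blocks and spanned 522 and 482 kb, whereas the other 8 had 7 to 13 blocks and spanned 15.3 to 96.1 kb. Reads of duplicated genes can be shared or lost, and how the authors handled such reads is not given in the sources used here. Of the 50-base words in the annotated transcripts of Skint7, 6.83% also occurred in Skint8, and 5.81% of those of Skint8 occurred in Skint7. For Skint5 and Skint6 the shared portions were 3.97% and 4.64%, for Skint3 and Skint2 0.495% and 0.819%, and Skint1, Skint4, Skint9 and Skint10 shared no such word with another family gene. Values within the pairs Skint7 and Skint8, Skint5 and Skint6, and Skint2 and Skint3 are uncertain for that reason. Only exact words in annotated transcripts of family genes were compared. Near-identical sequence and other loci were not, so these portions set no upper limit for any member. Only Skint6 overlapped exons of another gene, over 1.65% of its length, and that gene had 0 counts.

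Upstream sequences came from RefSeq (GRCm38.p6, 250 bases before the annotated start), where all 10 members had an entry. They are shown for members whose windows shared long stretches of letters, among them the pairs whose values are set side by side later. The start of Skint8 in RefSeq lies inside its first counted exon, so that its window includes transcribed bases of the annotation used for counting, and the window used for Skint4 is that of an inner start. Skint5 (chr4:113999504-113999753, minus strand) and Skint6 (chr4:113286974-113287223, minus strand) had the same base at 222 of 250 positions. Capitals mark the longest word found upstream of 5 members, AGTACTTGAGTAAT.
Skint5: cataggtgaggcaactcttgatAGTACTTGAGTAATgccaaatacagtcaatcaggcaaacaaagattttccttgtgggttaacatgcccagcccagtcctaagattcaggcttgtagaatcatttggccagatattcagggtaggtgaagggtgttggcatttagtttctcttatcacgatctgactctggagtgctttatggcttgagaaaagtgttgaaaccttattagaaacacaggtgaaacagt
Skint6: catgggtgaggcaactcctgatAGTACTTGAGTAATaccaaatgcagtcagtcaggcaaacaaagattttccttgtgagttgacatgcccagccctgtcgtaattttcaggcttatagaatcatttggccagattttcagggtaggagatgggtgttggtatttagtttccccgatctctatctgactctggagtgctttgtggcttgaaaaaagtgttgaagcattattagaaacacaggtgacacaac
That word, chosen after the sequences were seen, occurred on either strand in 5 of 12 family windows and in 5 of the 32851 windows of all genes (0.0152%), all of them Skint genes. The others were Skint1 (chr4:112006023-112006066), Skint3 (chr4:112232127-112232170) and Skint4 (chr4:112081408-112081451), all on the plus strand, shown with 15 bases on each side.
Skint1: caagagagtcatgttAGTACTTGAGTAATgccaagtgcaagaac
Skint3: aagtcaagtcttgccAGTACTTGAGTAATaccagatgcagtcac
Skint4: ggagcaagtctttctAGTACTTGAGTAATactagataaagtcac
Skint7 (chr4:111972677-111972926, plus strand) and its neighbour Skint8 (chr4:111919305-111919554, plus strand) shared an unbroken run of 51 bases, in capitals, which lay at positions -52 to -2 from the start of Skint7 and at -230 to -180 from that of Skint8.
Skint7: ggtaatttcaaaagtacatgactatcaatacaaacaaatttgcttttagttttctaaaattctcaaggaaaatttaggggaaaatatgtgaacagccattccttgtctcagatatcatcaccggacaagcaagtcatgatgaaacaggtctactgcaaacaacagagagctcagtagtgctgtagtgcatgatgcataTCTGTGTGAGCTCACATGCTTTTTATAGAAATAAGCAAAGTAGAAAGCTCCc
Skint8: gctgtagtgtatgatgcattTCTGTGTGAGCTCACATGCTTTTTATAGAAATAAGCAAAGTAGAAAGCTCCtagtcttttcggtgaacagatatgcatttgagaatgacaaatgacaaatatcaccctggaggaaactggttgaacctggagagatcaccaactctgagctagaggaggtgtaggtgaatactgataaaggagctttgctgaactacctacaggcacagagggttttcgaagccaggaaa
Skint9 (chr4:112433986-112434235) and Skint10 (chr4:112774862-112775111), both on the minus strand, shared another word with Skint11, in capitals, which was found in 3 of 32851 windows.
Skint9: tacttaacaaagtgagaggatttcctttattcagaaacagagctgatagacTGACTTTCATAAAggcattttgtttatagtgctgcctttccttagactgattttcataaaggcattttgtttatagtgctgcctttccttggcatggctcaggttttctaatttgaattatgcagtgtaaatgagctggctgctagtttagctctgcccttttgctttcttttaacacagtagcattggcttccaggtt
Skint10: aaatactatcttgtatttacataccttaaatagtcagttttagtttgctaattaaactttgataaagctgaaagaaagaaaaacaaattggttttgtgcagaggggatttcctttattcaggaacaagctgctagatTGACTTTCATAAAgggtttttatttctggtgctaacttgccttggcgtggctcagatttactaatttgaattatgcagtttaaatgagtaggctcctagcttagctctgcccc
These matches describe the letters of the windows and name no bound factor.

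Per length, Skint9 was by far the most abundant member. Its level was 47.9, 63.7 and 44.6 CPM per kb of exon in Cre-positive libraries, against 71.4, 70.0 and 62.2 CPM per kb in Cre-negative ones. Skint3 followed with a mean of 16.4 ± 3.12 CPM per kb in Cre-positive and 12.3 ± 2.03 CPM per kb in Cre-negative libraries (SD, n = 3 each), and Skint6 with 13.0 ± 1.41 and 10.9 ± 1.39 CPM per kb in the same groups. Skint1 averaged 9.33 ± 0.798 CPM per kb in Cre-positive and 10.3 ± 1.63 CPM per kb in Cre-negative libraries. Skint2, Skint4 and Skint10 formed a middle band with means of 3.88 to 4.96 CPM per kb in Cre-positive and 4.23 to 5.42 CPM per kb in Cre-negative libraries. Skint5, Skint7 and Skint8 were lowest, at means of 0.935 to 1.004 CPM per kb in Cre-positive and 1.32 to 2.34 CPM per kb in Cre-negative libraries.

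The order from Skint9 down to Skint1 was the same in both groups, but not every step exceeded the spread between libraries. Ranges of neighbours were separate in both groups between Skint9 and Skint3. They overlapped in both groups between Skint3 and Skint6 and between Skint2 and Skint10. Skint6 and Skint1 were separate in Cre-positive libraries, with at least 11.4 against at most 10.3 CPM per kb, and overlapped in Cre-negative ones. At the low end, Skint5, Skint7 and Skint8 could not be ordered in the Cre-positive libraries, while in the Cre-negative libraries Skint7 (at least 2.16 CPM per kb) stood above Skint8 (at most 1.68 CPM per kb).

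**Figure D1:**
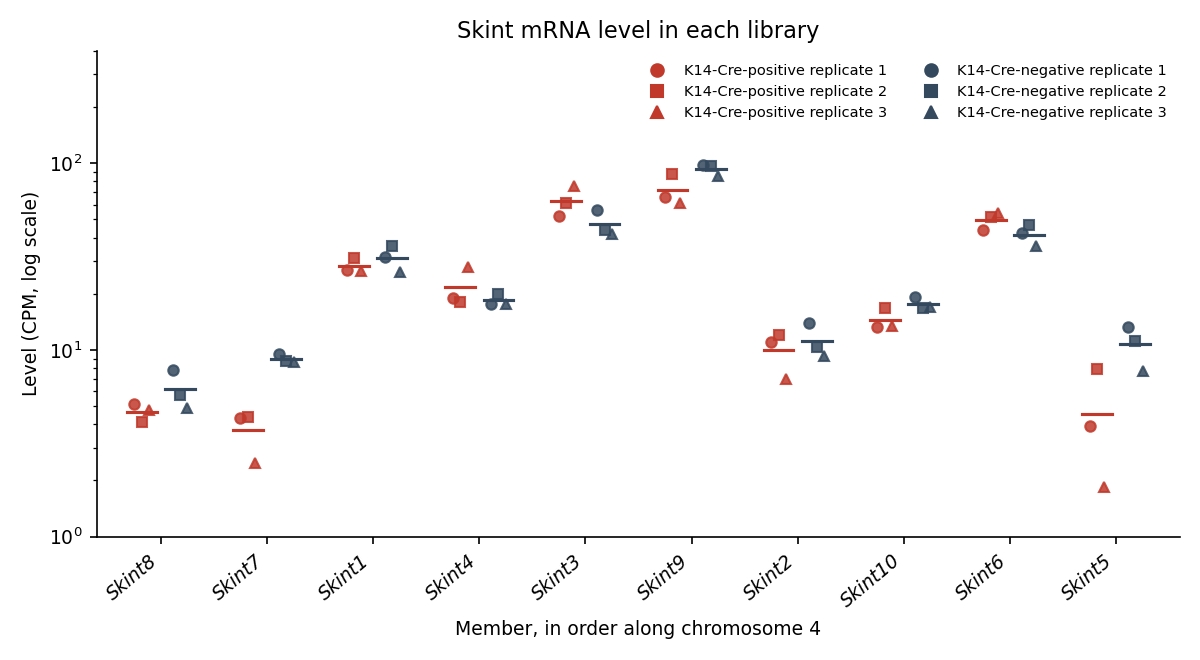
Level of each Skint member in each library, in CPM on a log axis, with members in their order along the chromosome; red and dark symbols are Cre-positive and Cre-negative libraries and bars their means over 3 libraries. Skint7 is the member whose groups do not overlap, at 2.47 to 4.38 CPM in Cre-positive and 8.60 to 9.47 CPM in Cre-negative libraries.

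None of the 10 members passed the threshold of 0.05 in edgeR's quasi-likelihood test with Benjamini-Hochberg adjustment over the whole table, where 80 of 15525 genes did (0.515%), that is, 0.406% of the genes tested higher and 0.110% lower in Cre-positive libraries. By limma-voom 0 members passed as well, against 0.425% of genes (0.335% higher, 0.0902% lower). By DESeq2 1 member passed, Skint7, against 5.46% of genes (3.60% higher, 1.86% lower). DESeq2 gave some of the tested genes, though none of the members, no adjusted p, and these count as not called. The members with an unadjusted edgeR p under 0.05 were 4, against 18.8% of genes: Skint5, Skint7 and Skint9 had lower and Skint3 higher values in Cre-positive libraries. The log2 fold change, Cre-positive minus Cre-negative, was negative for 7 members and positive for 3, with a median of -0.22 against -0.0048 for the 15525 genes tested, whose quartiles were -0.17 and 0.17. The ratio was at least 2-fold for 2 members, Skint5 and Skint7, against 2.51% of genes. Groups did not overlap for 1 of 10 members, Skint7, which was lower, against 28.0% of tested genes (13.8% lower, 14.1% higher). Within both sexes taken singly, 6 members had lower and 2 had higher values in Cre-positive libraries. Each sex held only 1 library in 1 of the groups, and the share of all genes with such agreement was not computed. In these bulk samples, fewer cells of a type and less RNA per cell cannot be told apart.

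Skint7 stood nearest to the threshold. It had 4.33, 4.38 and 2.47 CPM in Cre-positive libraries, against 9.47, 8.71 and 8.60 CPM in Cre-negative ones. Every Cre-positive library lay below every Cre-negative one, and the Cre-positive mean was 41.8% of the Cre-negative mean. The log2 fold change was -1.25 (SE 0.22, 95% interval -1.77 to -0.73), with an edgeR adjusted p of 0.0741. Of the genes tested, 0.966% had a p as small or smaller. The adjusted p was 4.87e-05 by DESeq2, 0.0399 with no filter beyond 1 count and 0.0129 by edgeR without Cre-positive replicate 3, where the fold change was -1.03, and over all alternatives except the test against a 1.5-fold change it ran from 4.87e-05 to 0.321. Within females, where the Cre-positive side is replicate 3 alone, the log2 ratio was -1.87, and within males it was -0.999. Skint8, which lies next to it, had 5.16, 4.12 and 4.75 CPM in Cre-positive libraries, against 7.82, 5.75 and 4.87 CPM in Cre-negative ones, ranges that met only narrowly, and its fold change of -0.39 (SE 0.21) had an interval from -0.88 to 0.09 and was -0.18 without Cre-negative replicate 1.

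Skint5 had a fold change of the same size with much wider spread. Its level was 3.93, 7.88 and 1.85 CPM in Cre-positive libraries, against 13.3, 11.2 and 7.73 CPM in Cre-negative ones. Cre-positive replicate 2 lay just above the lowest Cre-negative library. The log2 fold change was -1.24 (SE 0.47, 95% interval -2.33 to -0.14, edgeR adjusted p = 0.227), a fold change that 0.399% of the genes tested matched or went below. It was -0.88 without Cre-positive replicate 3 and -1.87 without replicate 2. Skint6, its near relative, had 43.7, 51.7 and 54.1 CPM in Cre-positive libraries, against 42.2, 46.5 and 35.9 CPM in Cre-negative ones. These groups overlapped, with a fold change of 0.26 (SE 0.12, interval -0.02 to 0.55), which was 0.17 without Cre-negative replicate 3.

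Ratios within a library do not depend on how libraries were scaled. The log2 ratio of Skint6 to Skint5 counts was 3.48, 2.71 and 4.87 in Cre-positive libraries, against 1.66, 2.06 and 2.22 in Cre-negative ones, with no overlap. That of Skint8 to Skint7 was 0.25, -0.09 and 0.94 in Cre-positive libraries, against -0.28, -0.60 and -0.82 in Cre-negative ones, again with no overlap. Skint8 thus gave more counts than Skint7 in 2 of 3 Cre-positive libraries and fewer in all 3 Cre-negative ones. For the remaining pair that shared transcript words, the log2 ratio of Skint3 to Skint2 was 2.24, 2.35 and 3.43 in Cre-positive libraries, against 2, 2.07 and 2.16 in Cre-negative ones, which also did not overlap. Of all 45 ratios between members, 24 did not overlap between the groups, so these 3 pairs do not stand out by it. The 45 ratios reuse the same 10 members, and no share was computed over pairs of other genes. That count therefore says nothing particular about the family. They were picked for their sequence likeness with the fold changes known, so the ratios are given without a test. With 3 libraries a group an exact permutation test cannot go below 0.1.

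**Figure D2:**
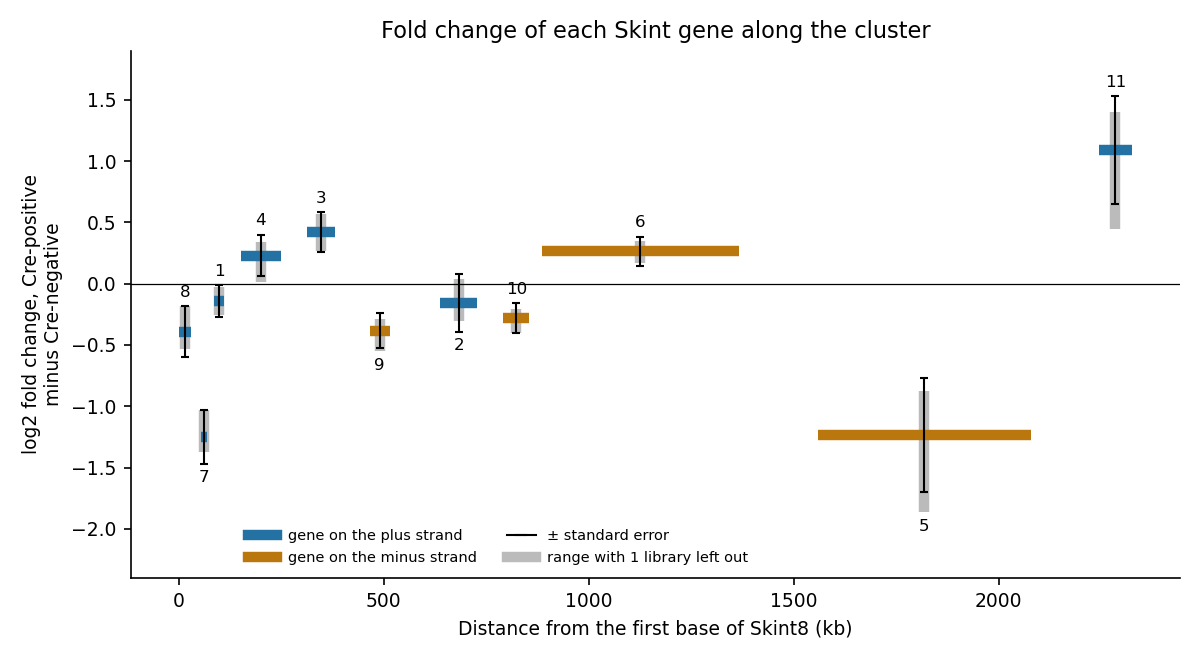
Log2 fold change (Cre-positive minus Cre-negative) of each Skint gene, Skint11 included, against the distance of its span from the first base of Skint8, in kb; numbers name the genes, whiskers are standard errors and grey bars the range when 1 library is left out. The members with positive values, Skint3, Skint4 and Skint6, lie between members with negative ones, and Skint7 (-1.25) and Skint5 (-1.24) lie farthest below 0.

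Skint9, the most abundant member, had 65.7, 87.4 and 61.3 CPM in Cre-positive libraries, against 98.0, 96.1 and 85.3 CPM in Cre-negative ones. Cre-positive replicate 2 reached just above the lowest Cre-negative library, and replicates 1 and 3 lay below all 3. The fold change was -0.38 (SE 0.14, interval -0.71 to -0.05, edgeR adjusted p = 0.219). Skint10 had 13.2, 16.9 and 13.4 CPM in Cre-positive libraries, against 19.3, 16.7 and 16.9 CPM in Cre-negative ones, and a fold change of -0.28 (SE 0.12). Skint9 and Skint10 were the pair most alike over the 6 libraries of all 45 pairs, with a root mean square difference of 0.0987 between their mean-centred log2 CPM.

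Skint1, the selecting member for epidermal T cells, lay in the middle of the family's range. It had 26.9, 30.9 and 26.6 CPM in Cre-positive libraries, against 31.4, 35.8 and 26.0 CPM in Cre-negative ones. The groups overlapped, and the fold change of -0.14 (SE 0.13) had an interval from -0.45 to 0.16, so a change of more than 0.45 in either direction on the log2 scale lay outside it. It was -0.03 without Cre-negative replicate 2, -0.26 without Cre-negative replicate 3 and -0.22 without Cre-positive replicate 2. Skint2 had 11.0, 12.04 and 7.03 CPM in Cre-positive libraries, against 14, 10.4 and 9.29 CPM in Cre-negative ones. Its fold change of -0.16 (SE 0.23) turned to 0.04 without Cre-positive replicate 3 and to 0.03 without Cre-negative replicate 1, whereas it was -0.31 without Cre-positive replicate 2 and -0.28 without Cre-negative replicate 3. The log2 ratio was -0.73 within females and 0.15 within males.

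Skint3 and Skint4 had the other positive fold changes. Skint3 had 52.1, 61.3 and 75.8 CPM in Cre-positive libraries, against 56.0, 43.7 and 41.5 CPM in Cre-negative ones. Cre-positive replicate 1 lay below Cre-negative replicate 1, the remaining Cre-positive libraries above all 3. The fold change was 0.42 (SE 0.17, interval 0.03 to 0.81, edgeR adjusted p = 0.240), and 0.27 without Cre-positive replicate 3. Skint4 had 19.1, 18.1 and 27.9 CPM in Cre-positive libraries, against 17.7, 20.04 and 17.7 CPM in Cre-negative ones, and its fold change of 0.23 (SE 0.17) was 0.01 without Cre-positive replicate 3. Within males its log2 ratio was -0.11, and within females 0.66.

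Summed over the 10 members, the family had 245, 295 and 275 CPM in Cre-positive libraries, against 309, 295 and 254 CPM in Cre-negative ones. The sums overlapped throughout, with means of 272 ± 24.9 and 286 ± 28.7 CPM (SD, n = 3 each) in Cre-positive and Cre-negative libraries. The make-up of that sum differed more than its size. Skint9 gave 26.8%, 29.7% and 22.3% of the family's counts in Cre-positive libraries, against 31.7%, 32.6% and 33.6% in Cre-negative ones. Skint3 gave 21.3%, 20.8% and 27.6% in Cre-positive libraries, against 18.1%, 14.8% and 16.4% in Cre-negative ones. In Cre-positive replicate 3 Skint3 outnumbered Skint9, which it did in no other library. Skint6 held 17.5% to 19.65% in Cre-positive and 13.6% to 15.8% in Cre-negative libraries. Skint5 held 0.674% to 2.68% and Skint7 0.898% to 1.77% in Cre-positive libraries, against 3.04% to 4.31% and 2.95% to 3.39% in Cre-negative ones. Shares of 5 members, Skint3, Skint6, Skint5, Skint7 and Skint9, did not overlap between the groups. Of all tested genes, 16.1% did not overlap when their counts were divided by the same sum, though shares within the family are bound to each other because they add up to a whole.

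**Figure D3:**
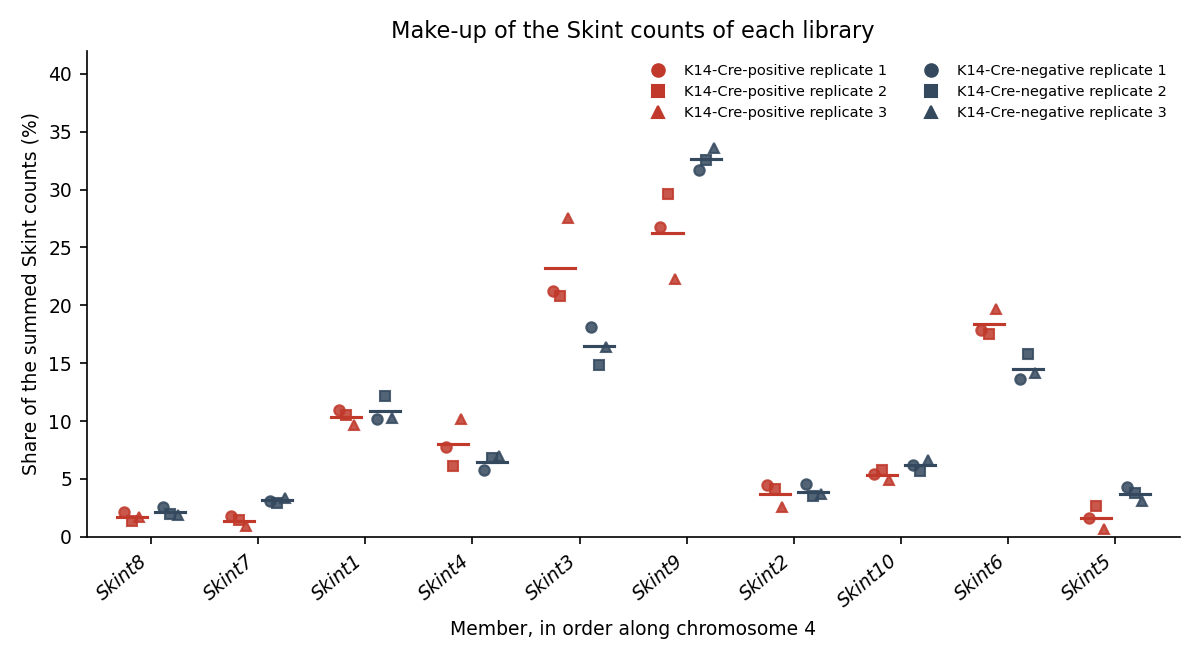
Share of each member in the summed Skint counts of each library, in percent; red and dark symbols are Cre-positive and Cre-negative libraries and bars their means over 3 libraries. Skint3 and Skint6 are higher and Skint5, Skint7 and Skint9 lower in all 3 Cre-positive libraries than in any Cre-negative one.

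Within the Cre-positive group, replicate 3 was the library farthest from its own group's mean for 5 of 10 members, and it did not move the family one way. Against its group's mean log2 CPM it was lower for Skint5 (-1.03), Skint7 (-0.53) and Skint2 (-0.47) and higher for Skint4 (0.39) and Skint3 (0.28). For Skint7 the SD of log2 CPM was 0.46 in Cre-positive and 0.07 in Cre-negative libraries, and for Skint5 it was 1.02 in Cre-positive and 0.40 in Cre-negative libraries.

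**Figure D4:**
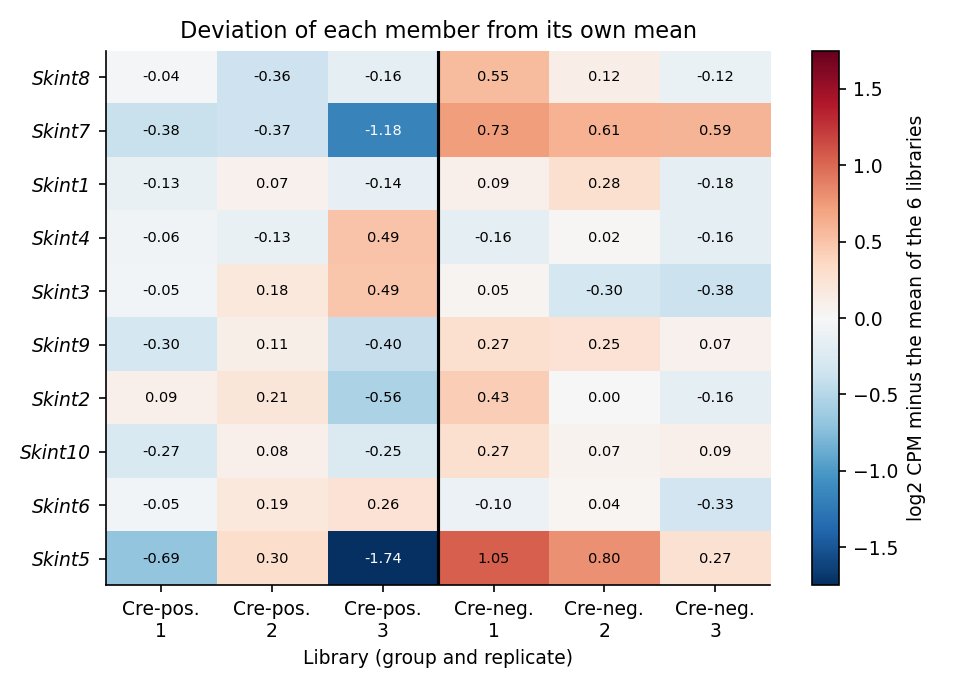
Deviation of each member's log2 CPM from its own mean over the 6 libraries (colour and printed value), with Cre-positive libraries left of the line and Cre-negative ones right of it. Skint5 and Skint7 reach -1.74 and -1.18 in Cre-positive replicate 3, the library in which Skint3 and Skint4 both stand at 0.49.

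Skint11, a further family gene downstream of the cluster at 114163384 to 114245028 on the plus strand, is not among the 10 members. It had 1.69, 2.26 and 5.37 CPM in Cre-positive libraries, against 1.20, 1.52 and 1.60 CPM in Cre-negative ones. All Cre-positive libraries lay above the Cre-negative ones, replicate 3 far above. The fold change was 1.09 (SE 0.44, edgeR adjusted p = 0.247) and 0.45 without that replicate. Among the other genes within 500 kb of the cluster, 4 reached a mean of 1 CPM, and none passed by edgeR or limma-voom. Bend5, 459 kb before it, had 5.95 ± 0.189 CPM in Cre-positive and 8.65 ± 0.171 CPM in Cre-negative libraries (SD, n = 3 each; log2 fold change -0.54, edgeR adjusted p = 0.0865), and DESeq2 called it (adjusted p = 0.0195). Slc5a9, a sugar transporter gene 16.5 kb before Skint8, had a log2 fold change of 0.38 (SE 0.12), which was 0.25 without Cre-positive replicate 3, Spata6 one of 0.36 (SE 0.11) and Trabd2b one of -0.06 (SE 0.19).

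In a list of butyrophilin, B7 and related genes that includes Skint11, 7 of 17 with a row in the table were expressed enough to be tested. Of these edgeR, limma-voom and DESeq2 each called 0, though DESeq2 gave Mog and Vtcn1 no adjusted p. An unadjusted p under 0.05 was found for 2, Skint11 and Icosl, against 18.8% of all genes tested. Btnl1 and Btnl10, butyrophilin-like genes, had 0 counts in all 6 libraries. Icosl, a ligand of the T cell co-stimulator ICOS, had 6.515, 5.001 and 11.97 CPM in Cre-positive libraries, against 3.37, 4.11 and 5.02 CPM in Cre-negative ones (log2 fold change 0.90, SE 0.33, edgeR adjusted p = 0.222), and its fold change was 0.47 without Cre-positive replicate 3. Vtcn1, an inhibitory B7 family gene, had -0.94 (SE 0.46) on the log2 scale, with -0.60 without Cre-positive replicate 3 and likewise without Cre-negative replicate 2, and Cd276, the most abundant of the list, had -0.06 (SE 0.15). Among keratinocyte genes that attract, hold or alert epidermal T cells, 0 of 15 tested passed by edgeR and 0 by limma-voom, and 2 had an unadjusted p under 0.05. DESeq2 called 1, Ccl27a, against 5.46% of all genes, and gave Ccl20, Ulbp1 and Tnfsf9 no adjusted p. Ccl27a, a skin-homing chemokine gene, had 8.30, 8.32 and 9.03 CPM in Cre-positive libraries, against 15.2, 12.5 and 11.7 CPM in Cre-negative ones, without overlap (edgeR adjusted p = 0.0931, log2 fold change -0.62, SE 0.13). The adhesion gene Nectin1 had 0.26 (SE 0.10), the cytokine gene Il18 0.29 (SE 0.13, and 0.18 without Cre-positive replicate 3) and the E-cadherin gene Cdh1 0.04 (SE 0.08, turning to -0.07 under scaling by total count).

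Genes of the epidermal gamma-delta T cells themselves had negative log2 fold changes in 21 of 23 tested, with a median of -0.74, against -0.0048 for all genes tested. By edgeR 0 passed and by limma-voom 0. An unadjusted p under 0.05 was found for 12, against 18.8% of all genes tested. DESeq2 called 4, all lower, against 1.86% of all genes lower. It gave no adjusted p for Cd247, Trdv4, Tcrg-C1, Tcrg-V5, Klrk1, Xcl1, Cd2, Gzmc and Trat1, which count as not called. The summed level of the list was 229 to 250 CPM in Cre-positive and 256 to 292 CPM in Cre-negative libraries. Cd3g, the gene of the CD3 gamma subunit of the T cell receptor complex, had 2.52, 3.67 and 2.09 CPM in Cre-positive libraries, against 6.98, 5.05 and 5.86 CPM in Cre-negative ones (log2 fold change -1.11, edgeR adjusted p = 0.103). The cytotoxic granule gene Nkg7 had -1.17 (SE 0.25) and Id3, a transcriptional regulator also expressed in keratinocytes, -0.62 (SE 0.13), while Egr3, the most abundant of the list and not specific to T cells, had -0.08 (SE 0.15).

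Summed levels of the hair follicle and melanocyte lists did not overlap between the groups. The sebaceous gland, gamma-delta T cell and keratinocyte signal sums were also separate, though narrowly. Sums of the butyrophilin, basal, myeloid, fibroblast and, narrowly, suprabasal lists overlapped. Of single genes tested, 28.0% did not overlap between the groups, and no such share was computed for sums over other lists. The part of any of them in the Skint values was not tested. Over all genes tested, 18.8% had an unadjusted p under 0.05, and DESeq2 called 5.46% (3.60% higher, 1.86% lower). For suprabasal keratinocytes, 17 of 19 tested genes had positive fold changes with a median of 0.37, 0 passed by edgeR or limma-voom, 11 had an unadjusted p under 0.05 and DESeq2 called 6. Their summed level was 119100 to 166400 CPM in Cre-positive and 96660 to 119400 CPM in Cre-negative libraries, highest in Cre-positive replicate 3, and the keratin gene Krt10 was the most abundant, with 0.37 (SE 0.15). Among the named genes of that list, the desmosomal gene Dsc1 and the transglutaminase gene Tgm1 had 0.84 and 0.54, with 0.32 for Tgm1 without Cre-positive replicate 3, and the keratin gene Krt77 had -0.93. Hair follicle genes summed to 2333 to 3087 CPM in Cre-positive and 3555 to 3695 CPM in Cre-negative libraries, lowest in Cre-positive replicate 3, where edgeR and limma-voom called 0 of 16, DESeq2 4, and 8 had an unadjusted p under 0.05. There the keratin gene Krt17, the most abundant, had -0.66, the stem cell genes Lrig1 and Sox9 had -0.41 and -0.44, and the wound keratin gene Krt6a had 1.12. Sebaceous gland genes summed to 475 to 494 CPM in Cre-positive and 501 to 603 CPM in Cre-negative libraries, where edgeR and limma-voom called 0 of 11, DESeq2 3, and 6 had an unadjusted p under 0.05. Soat1, Mgst1 and Elovl3, lipid genes of sebocytes, had -0.86, -0.46 and -0.80, and Fasn, the most abundant, had 0.20. Basal keratinocyte genes overlapped, at 18140 to 20410 CPM in Cre-positive and 18410 to 20660 CPM in Cre-negative libraries, where edgeR and limma-voom called 0 of 13, 2 had an unadjusted p under 0.05 and DESeq2 called 2, Krt15 (-0.92) and the integrin gene Itgb4 (0.50).

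Over all genes tested, edgeR called 0.515%, limma-voom 0.425% and DESeq2 5.46%, and 18.8% had an unadjusted p under 0.05. Melanocyte genes were the list with most calls: 7 of 9 rose by edgeR, 7 by limma-voom and 8 by DESeq2, with 9 at an unadjusted p under 0.05. Those called by edgeR were the pigment synthesis genes Dct (0.82), Tyr (1.08) and Tyrp1 (1.45), the melanosome genes Pmel (0.84) and Mlana (1.57), and the receptor genes Kit (0.80) and Ednrb (1.03). Dct, Tyr, Pmel, Kit and Ednrb lost the call under total count scaling (edgeR adjusted p = 0.101 to 0.110), and all 7 lost it when any 1 Cre-negative library was left out (0.0831 to 0.235). Leaving out Cre-positive replicate 1 or 2 cut the edgeR calls over all genes to 25 and 7, against 80 with all libraries. Without Cre-positive replicate 3 they were 422. The melanocyte list summed to 714 to 820 CPM in Cre-positive and 397 to 463 CPM in Cre-negative libraries. Of 13 Langerhans and myeloid genes tested, edgeR called 2, the lysozyme gene Lyz2, which rose (log2 fold change 1.33, SE 0.17), and the antigen presentation gene H2-Ab1, which fell (-2.29, SE 0.32), while limma-voom called 1, DESeq2 called 3 higher and 3 lower, and 9 had an unadjusted p under 0.05. The limma-voom adjusted p of H2-Ab1 was 0.0566. With sex as a covariate neither passed (edgeR adjusted p = 0.0708 for Lyz2 and 0.0841 for H2-Ab1), nor did Lyz2 under total count scaling (0.0662), nor either without Cre-positive replicate 1 or 2 or without any 1 Cre-negative library (0.0658 to 0.215). The list summed to 153 to 220 CPM in Cre-positive and 184 to 230 CPM in Cre-negative libraries. Csf1r, the most abundant of them, had -0.04 (SE 0.14). Of 12 fibroblast and vessel genes, edgeR, limma-voom and DESeq2 called 0 each, with 0 at an unadjusted p under 0.05. DESeq2 gave Col1a1 and Col1a2 no adjusted p. The endothelial genes Cldn5 and Kdr had -1.82 (SE 1.13) and -0.67 (SE 0.84), and the matrix gene Dcn had 0.09 (SE 0.14). The list summed to 1402 CPM in Cre-positive replicate 1 and to 184 and 231 CPM in the remaining Cre-positive libraries, against 205 to 840 CPM in Cre-negative ones, and the most abundant of them, the collagen gene Col3a1, stood at 23.9 to 436 CPM in Cre-positive and 38.1 to 261 CPM in Cre-negative libraries. The Skint sum was lowest in Cre-positive replicate 1 within its group and in Cre-negative replicate 3 within its own, the libraries with the highest fibroblast and vessel sums. That match was picked after the sums of all lists were seen, and a link was not tested.

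**Figure D5:**
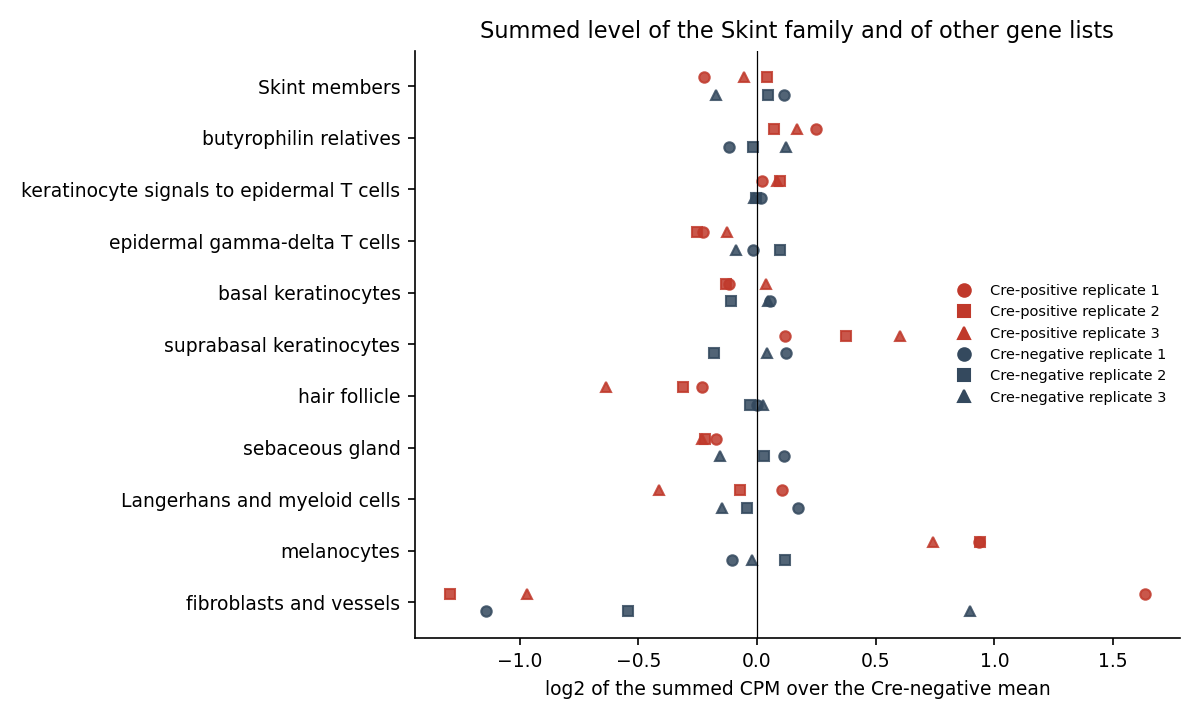
Log2 of the summed CPM of the Skint members and of each other gene list in each library over the Cre-negative mean; red symbols are Cre-positive and dark symbols Cre-negative libraries. The Skint members overlap between the groups, whereas the hair follicle and melanocyte sums do not. The sebaceous gland, gamma-delta T cell and keratinocyte signal sums are separate only narrowly, and the suprabasal sums overlap only narrowly.

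The genes outside the family whose mean-centred log2 CPM over the 6 libraries came nearest to the mean profile of the 10 members, among 13869 genes with a mean of at least 1 CPM, were Ccdc28a, Gm10420, Ldah, Ppp2r3a and 5930412G12Rik, with root mean square differences of 0.0394 to 0.0542 against a median of 0.263 over those genes. Nearest to Skint9, the most abundant member per length, were Gm4799, Nadsyn1, Fam189a2, Acsl4 and Wfdc21, with differences of 0.0392 to 0.0625 against a median of 0.301. None of these 10 genes passed the threshold by edgeR, with log2 fold changes from -0.39 to -0.25, and they were picked by likeness, so their values support nothing about the family.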

How the data were processed

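RNA from 6 libraries of CD49f-positive epidermal cells was sequenced after a directional library kit, per the labels' protocols. The deposited table holds unnormalized counts of reads for each gene, beside exon coordinates and lengths, per the file headers. GSNAP, featureCounts and the build mm10 are named in the submitters' processing notes. Versions, strand setting and the handling of multiply mapped reads were not given in the sources used here. Symbols were matched by identifier for 37607 of 38924 genes, and GENCODE placed all 10 members on the same chromosome. From the counts, genes were kept with filterByExpr (minimum count 10, 15525 genes), scaled by TMM and tested two-sided with edgeR 4.0.16 (glmQLFit, glmQLFTest) in R 4.3.3, all 6 libraries and no covariate, Benjamini-Hochberg adjusted across these genes, at a threshold of 0.05. Levels per length are CPM divided by the deposited exon length, and log2 CPM used a prior count of 2. A floor of 3 counts was 0.0922 to 0.143 CPM, and covers counting error only. No 2 libraries of a group were alike within sampling noise (chi-square per degree of freedom 9.11 to 70.4). Alternatives were DESeq2 1.42.0, limma-voom (limma 3.58.1), other scalings and filters, a test against a 1.5-fold change, sex (inferred from Xist and the Y-linked genes) as a covariate, and leaving out each library. The fits were tested on simulated counts with 200 genes changed. No simulated library was set apart from its group as Cre-positive replicate 3 was. That run therefore cannot show how the fits behave with such a library. Named were all members, Skint11, Rnaseh2b, the genes of each list past the threshold or else the 3 with the smallest p, its most abundant gene, genes near the cluster and those most alike in profile. Members and lists were chosen with earlier results of these data known.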

Additional observations from a re-analysis of the deposited data

How the results depend on the processing

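Among the 10 members, 1 passed the threshold by DESeq2, 1 with no filter beyond 1 count and 0 to 1 when 1 library was left out, and in each case it was Skint7. Among all genes, 80 passed, against 41 under total count scaling, 142 with no filter beyond 1 count, 847 by DESeq2, 3 in the test against a 1.5-fold change, 40 with sex as a covariate, and 0 to 422 when 1 library was left out (0 without Cre-negative replicate 1 or 2, 1 without Cre-negative replicate 3, 25 and 7 without Cre-positive replicate 1 or 2, and 422 without Cre-positive replicate 3). The cause of these shifts was not tested, beyond the smaller number of libraries when 1 is left out. The median fold change of all genes was -0.0048 and -0.12 under total count scaling, which turned no member. With 1 library left out, Skint2 ranged from -0.3066 to 0.03826, and of the 11 family genes it was the one that turned. Others that turned were Cd276 (-0.2019 to 0.08954), Egr3 (-0.2122 to 0.06274), Csf1r (-0.15 to 0.10), Dcn (-0.0053 to 0.25), Col3a1 (-2.11 to 1.53) and Trabd2b (-0.2173 to 0.08318). Under total count scaling Cdh1 had -0.07177 and Dcn -0.02434, and Col3a1 had -0.36 in limma-voom and -0.24 with sex as a covariate. Lengths merged from the exon coordinates equalled the deposited ones. No paired analysis was possible because the labels give the groups no shared replicate numbers. Counts were low for the members lowest per length. Skint5 rested on 39 to 178 counts in Cre-positive and 203 to 332 counts in Cre-negative libraries. Skint8 rested on 93 to 168 counts in Cre-positive and 128 to 195 counts in Cre-negative libraries. In Cre-positive libraries the SD of log2 CPM was 1.02 for Skint5 and 0.16 for Skint8. The part of depth in these spreads was not tested.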
